A study of Mus musculus with 4 samples.

Results

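A small set of H2A.Z peaks, each called as a single stretch in wild-type mouse embryonic fibroblasts, met 2 separate peaks in fibroblasts that lack Anp32e. These split peaks were found by position: each is a wild-type peak that shares at least 1 bp with 2 or more knockout peaks. There were 219 of them among 37667 wild-type peaks, which is 0.581% of the list (95% interval 0.507 to 0.664%). They met 437 of the 41912 knockout peaks. Every member met exactly 2 knockout peaks and none met 3 or more, and a single knockout peak served 2 neighbouring members at once. In 67 members (30.6%) a knockout part also reached into a neighbouring wild-type peak, so the wild type had a break of its own beside the member. In 71 members (32.4%) a knockout part had under 10% of its own length inside the member. The members were chosen by the overlap of peak positions between the 2 lists, so the values below, which come from those positions, describe them and no test between genotypes was made.

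The peaks come from ChIP-seq, the sequencing of DNA pulled down with an antibody against H2A.Z, in 1 culture that was wild type (+/+) and 1 that was knockout (-/-) for Anp32e, both on a C57BL/6 background. Heterozygous parents were crossed, cells came from the torsos of single embryos at embryonic day 10.5, and cultures were used at passages 5 to 10. The 4 libraries are an H2A.Z and an input library of each genotype, and the inputs were not analysed here. Each genotype is a single H2A.Z library, so differences between embryos, cultures and libraries cannot be told apart from the genotype. The lists hold positions only, with nothing that checks the knockout or the cell type. Depth is unknown, and intervals cover counting error over peaks only, with neighbouring peaks treated as independent.

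H2A.Z is a form of histone H2A that is placed into nucleosomes by remodelling complexes of the SWR1 family and is found mainly at promoters and other regulatory sites. At active promoters the nucleosomes that carry it usually lie on both sides of a stretch poor in nucleosomes. Anp32e is a histone chaperone that binds H2A.Z and is reported to take it off chromatin. A gap in a peak list means only that no peak was called over those bases. It does not show that H2A.Z was absent there, since the lists carry no height or read count.

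Split peaks were mostly wide peaks. Their widths ran from 1000 to 11251 bp, with a median of 3063 bp (quartiles 2204 and 4070 bp, 95% interval of the median 2759 to 3333 bp), compared with 1641 bp for all wild-type peaks and 1835 bp for the 30556 wild-type peaks that met exactly 1 knockout peak. The median member stood at the 93.0th percentile of width in the wild-type list. Of the members, 118 (53.9%) were wider than the 90th percentile of all wild-type peaks, 2839 bp, and 37 (16.9%) were wider than the 99th, 4524 bp. At the other end, 29 members (13.2%) were narrower than the median wild-type peak. A wide peak has more room to meet 2 partners, so width is bound to the rule.

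The share of peaks that were split was higher in wider peaks. No peak narrower than 1 kb was split, out of 3467, which allows a share of up to 0.0865% if up to 3 counts are allowed (exact 95% interval up to 0.106%). Between 1 and 2 kb the share was 0.237% (50 of 21056 peaks), and between 2 and 3 kb it was 0.557% (57 of 10226). It was 2.40% from 3 to 4 kb (53 of 2210) and 7.44% from 4 to 5 kb (37 of 497, 95% interval 5.30 to 10.1%). Among the 73 peaks of 6 kb and over 11 were split, or 15.1% (95% interval 7.77 to 25.4%). Even among the widest H2A.Z domains, most were thus not divided in the knockout. The intervals of the 3 widest classes overlap, so no order among those 3 can be read from them.

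**Figure D1:**
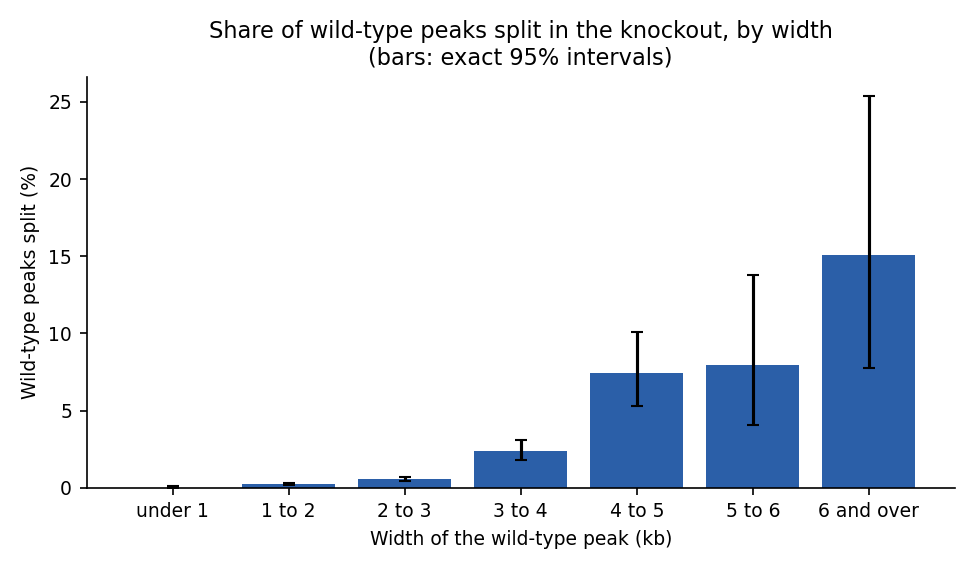
Percentage of wild-type peaks split in the knockout (vertical axis) by width of the wild-type peak in kb (horizontal axis), with exact 95% intervals as black bars. The share goes from 0 of 3467 peaks under 1 kb to 11 of 73 peaks (15.1%) of 6 kb and over.

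The gap between the 2 knockout parts was short. It ran from 1 to 2512 bp, with quartiles of 48 and 259 bp and a median of 110 bp (95% interval 90 to 144 bp). In 127 members (58.0%, 95% interval 51.2 to 64.6%) the gap was no longer than 150 bp, about the DNA of a single nucleosome. In 61 (27.9%) it was at most 50 bp, which is no longer than the 50-base reads. Gaps over 500 bp were found in 23 members (10.5%), and gaps over 1000 bp in 6 (2.74%). All gaps together came to 45.9 kb, or 6.44% of the 713 kb that the members spanned in the wild type.

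Most of each split peak was still covered in the knockout. The 2 parts covered a median of 94.9% of the wild-type width (95% interval 93.2 to 95.8%, lowest 50.8%), and the gap took a median of 3.70%. In 149 members (68.0%) at least 90% remained covered. Both outer edges of the wild-type peak were reached in 129 members (58.9%), a single edge in 75 (34.2%) and neither in 15 (6.85%). Sequence left uncovered at the outer flanks came to a median of 0% of the width, with an upper quartile of 2.02%.

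Gaps lay most often near the middle of the wild-type peak or close to an edge, and least often from 0.1 to 0.3 of the way in. Position was measured from the gap's centre to the nearer edge as a fraction of the width, so that 0 is the edge and 0.5 the middle. The median was 0.317 (95% interval 0.263 to 0.354). In the class of positions nearest the middle (0.4 to 0.5) lay 70 gaps, or 32.0% (95% interval 25.8 to 38.6%), and in the class at the edge (0 to 0.1) lay 57, or 26.0% (95% interval 20.4 to 32.4%). The classes between held 25, 22 and 45 gaps, from the edge inwards. The 22 gaps between 0.2 and 0.3 made up 10.05% (95% interval 6.40 to 14.8%). Neither side was preferred, as the gap was nearer the edge of lower coordinates in 101 of 219 members (46.1%, 95% interval 39.4 to 53.0%).

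Gaps near the middle and gaps at the edge belonged to peaks of different width. Members with the gap at 0.4 to 0.5 had a median width of 3693 bp (95% interval 3333 to 3980 bp) and a median gap of 179.5 bp (95% interval 99 to 243 bp). Those with the gap at 0 to 0.1 had a median width of 1740 bp (95% interval 1537 to 1936 bp) and a median gap of 59 bp (95% interval 47 to 93 bp). A gap so close to an edge cannot be long in a narrow peak, because it must lie inside it. In the edge class the smaller overlap between the wild-type peak and a knockout part had a median of 38 bp, so the second knockout peak only just reached in. In the middle class it was 1436 bp.

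The members fell into 2 kinds by what else the knockout parts touched. In 152 (69.4%, 95% interval 62.8 to 75.4%) both parts met this wild-type peak and no other, so a single called stretch in the wild type stood against 2 in the knockout. These are called closed loci here. In the other 67 (30.6%) a knockout part reached across into a neighbouring wild-type peak. At such loci the wild type had its own gap beside the member, which a knockout part spanned. The breaks of the 2 lists therefore lay at different places, at distances that varied.

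Closed loci were wide peaks broken towards the middle. Their median width was 3562 bp (95% interval 3311 to 3803 bp), the gap had a median of 115 bp (95% interval 90 to 173 bp), and its median position was 0.372. The position was over 0.3 in 107 of 152 (70.4%) and at most 0.1 in 14 (9.21%). In 117 (77.0%, 95% interval 69.5 to 83.4%) each part had at least 50% of its own length inside the wild-type peak. From the outer edge of the first part to that of the second, the knockout span exceeded the wild-type peak by 236 bp at the median (95% interval 159 to 294 bp). The 28979 pairs of peaks that met only each other were wider in the knockout by 215 bp at the median, which lies inside that interval. The measures are unlike, since the span of a closed locus includes its gap, and the pairs were not matched to closed loci in width. The summed width of the 2 parts exceeded the wild-type peak by 96 bp at the median (95% interval 0 to 217 bp).

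At the 67 loci with a part shared with a neighbour, the wild-type peaks were narrower and the gap was at the edge. The median width was 1924 bp (95% interval 1723 to 2356 bp) and the gap centre stood at or under 0.1 in 43 of them (64.2%). The smaller overlap was 63 bp at the median (95% interval 45 to 94 bp). Their gaps, with a median of 99 bp (95% interval 59 to 136 bp), were not clearly different in length from those of closed loci. These loci had 70 adjoining wild-type peaks that shared a part, since 3 loci had such a neighbour on both sides. The median wild-type gap to that neighbour was 148 bp (95% interval 96 to 185 bp). Its centre was 266.5 bp from the centre of the knockout gap at the median (95% interval 177 to 396 bp). In 47 of the 70 (67.1%) the 2 gap centres were within 500 bp of each other. The knockout gap was the shorter of the 2 in 41 of 70 (58.6%, 95% interval 46.2 to 70.2%). On chromosome 5, 2 members were each other's neighbour, so their wild-type gap entered 2 times. The 3 loci with a neighbour on both sides also entered 2 times, and the intervals treat all 70 as independent.

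**Figure D2:**
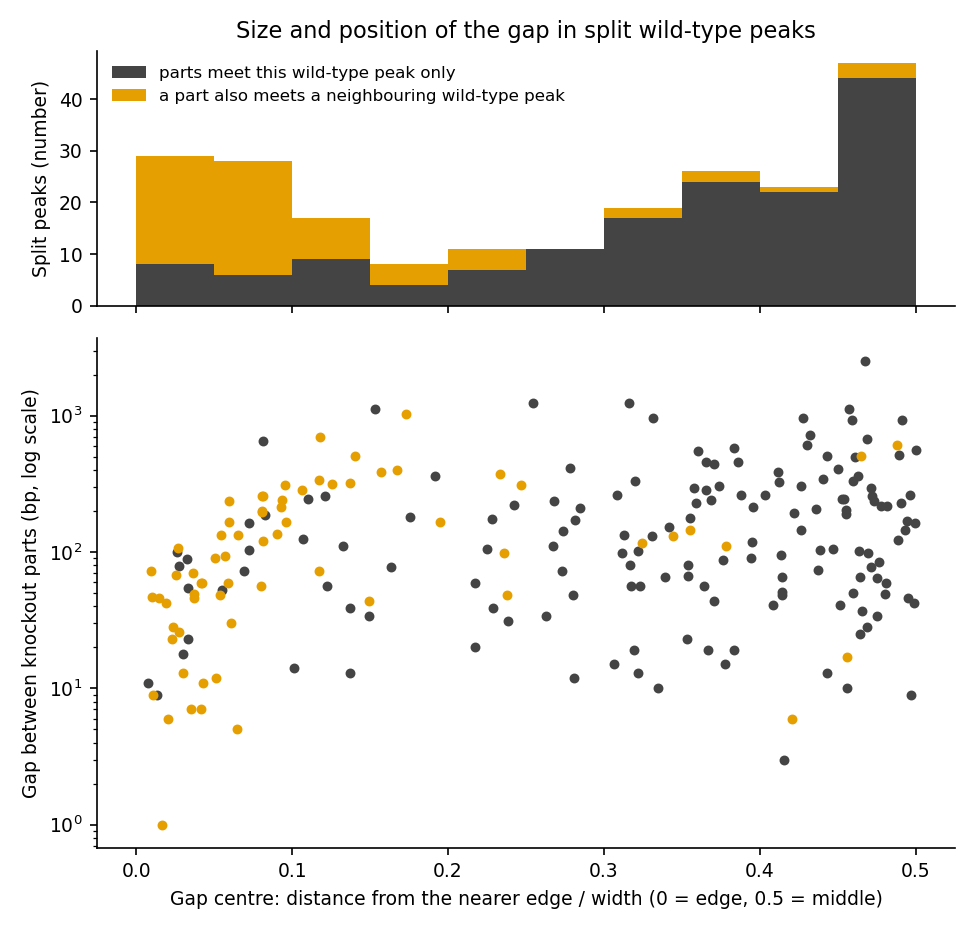
Upper panel, number of split peaks by position of the gap centre, from the nearer edge of the wild-type peak (0) to its middle (0.5); lower panel, gap length in bp on a log axis against the same position, 1 point per member. Grey marks the 152 closed loci and orange the 67 in which a part also meets a neighbouring wild-type peak; orange gathers at the edge, where 43 of 67 lie at or under 0.1, and grey towards the middle.

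The smaller of the 2 knockout parts was in most loci narrower than the median knockout peak of 1881 bp, and the larger was in most loci wider. Sorting 2 widths into smaller and larger favours this outcome by itself, so it shows nothing particular to these parts. The smaller part had a median width of 1477 bp (95% interval 1388 to 1547 bp, upper quartile 1749 bp, range 593 to 4070 bp) and the larger 2300 bp (95% interval 2190 to 2402 bp). The 437 parts had a median of 1784 bp (95% interval 1727 to 1856 bp), a little under the 1881 bp of all knockout peaks. The smaller part made up a median of 40.8% of the summed width, and in 47 members (21.5%) the larger part was at least 2 times as wide as the smaller. The larger part lay on the side of lower coordinates in 113 of 219 members (51.6%, 95% interval 44.8 to 58.4%). In 69 members (31.5%) at least 90% of each part lay inside the wild-type peak, and in 15 (6.85%) both parts lay wholly inside.

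The 10 widest split peaks lay on 7 chromosomes and were all closed loci. They were 6125 to 11251 bp wide, and their gaps ran from 34 to 2512 bp with a median of 311 bp. In 7 of the 10 the gap centre was between 0.4 and 0.5, and in 7 the parts covered at least 90% of the wild-type peak. The knockout span was wider than the wild-type peak in 5 of the 10 and narrower in 5. Coordinates are those of the mm9 build, counted from 1. The gene annotation at hand is on another build, so genes at these loci are not given.

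The widest member lay at chromosome 1, 88329831 to 88341081, with 11251 bp. In the knockout it became parts of 3379 and 7803 bp with a gap of 263 bp at 88333167 to 88333429. This gap lay off the middle, at 0.308 of the width from the nearer edge, and 97.7% of the peak remained covered. The next, at chromosome 2, 71376707 to 71385688, was 8982 bp wide and was parted into 5129 and 4070 bp by only 34 bp. Here the break was near the middle (0.475), and 97.6% was covered.

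The third locus had the longest gap of all members. The wild-type peak at chromosome 12, 57790262 to 57798796, was 8535 bp wide, and no knockout peak was called over the 2512 bp from 57792997 to 57795508. The parts were 1960 and 3982 bp wide, and 775 bp at the lower flank were also not called. The coverage that remained, 61.5%, was well below the median of the members.

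The fourth to the sixth were broken almost evenly. At chromosome 14, 58688778 to 58696166, a peak of 7389 bp was parted into 3739 and 3363 bp by 257 bp, and there was no other wild-type peak within 69725 bp. At chromosome 2, 92210115 to 92216627, a peak of 6513 bp gave parts of 2939 and 2942 bp, with 564 bp between them centred 0.5 bp from the middle. At chromosome 4, 106530521 to 106536946, a peak of 6426 bp gave parts of 2599 and 3206 bp with a gap of 359 bp. At the last 2 of these loci both parts lay wholly inside the wild-type peak, so that the knockout also fell short of both outer edges.

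The seventh, at chromosome 8, 28083973 to 28090306, was broken off the middle into 2070 and 4345 bp by 98 bp. The eighth, at chromosome 2, 91894810 to 91901081, had a gap of 721 bp between parts of 2368 and 3292 bp. The ninth, at chromosome 11, 94793795 to 94800053, was parted by 42 bp into 3321 and 3182 bp, and 99.3% of it stayed covered. The tenth was unlike the others. At chromosome 11, 96143220 to 96149344, the wild-type peak of 6125 bp was reduced to parts of 1814 and 1300 bp, with a gap of 956 bp and a lower flank of 1804 bp not called. Its covered share, 50.8%, was the lowest of all 219 members.

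**Figure D3:**
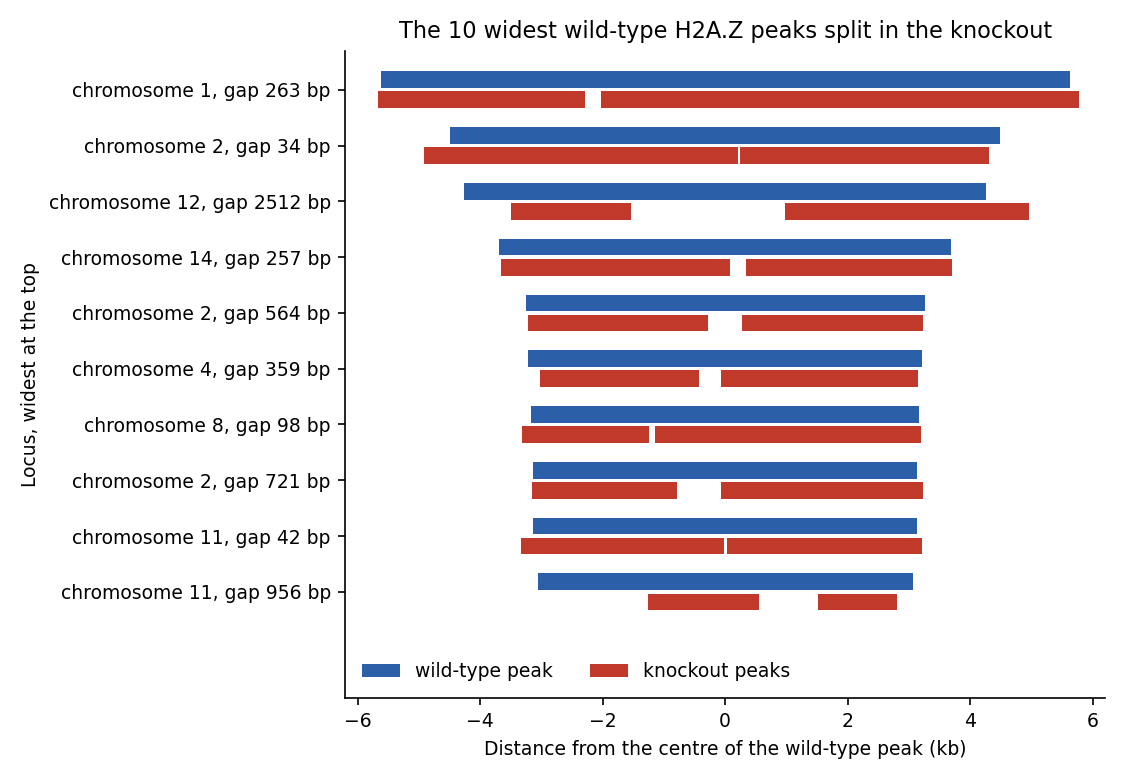
The 10 widest split peaks, widest at the top, drawn to scale as distance in kb from the centre of the wild-type peak (blue) with the 2 knockout peaks that overlap it (red). The gap runs from 34 bp at the second locus to 2512 bp at the third, and the tenth locus has the longest outer flank without a knockout peak (1804 bp).

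The 5 longest gaps were found in peaks of 2697 to 8535 bp, all wider than the 75th percentile of the wild-type list, 2253 bp. After the chromosome 12 locus came a gap of 1247 bp in a peak of 3523 bp at chromosome 2, 147187167 to 147190689, of which 63.7% remained covered. A gap of 1239 bp followed in a peak of 2697 bp at chromosome 19, 36985582 to 36988278. That locus had the second lowest covered share, 54.1%, and its first knockout part overlapped it by only 66 bp. On chromosome 15 a gap of 1124 bp lay in a peak of 4673 bp at 98519797 to 98524469, and a gap of 1112 bp in a peak of 4916 bp at 59025595 to 59030510. The 5 longest gaps were all in closed loci, and none of these peaks remained covered to 90%.

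The 5 shortest gaps were 1 to 6 bp long. A gap of 1 bp was found at chromosome 1, 168209658 to 168211593, where the first knockout part overlapped the member by 31 bp and reached on into the wild-type peak before it. The next was 3 bp long and lay on chromosome 17, in the peak from 85355385 to 85358428. On chromosome 19 the peak from 38552917 to 38554190 had a gap of 5 bp. Gaps of 6 bp were found on chromosome 11 in the peak from 54675778 to 54677500, and on chromosome 15 in that from 78893671 to 78896620. Of these 5 only the chromosome 17 locus was closed, whereas 18 of all 29 gaps of at most 20 bp were in closed loci. Its peak of 3044 bp was broken at 0.416 of its width into 1812 and 1251 bp, with 99.5% still covered.

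A single pair of members shared a knockout part. At chromosome 5 the members at 32635454 to 32637861 and 32638010 to 32641989 lie 148 bp apart in the wild type, and the knockout peak at 32636773 to 32639605 bridged that gap while opening 1 on each side. The knockout thus had 3 peaks and the wild type 2 over the same stretch, with knockout gaps of 17 and 506 bp. Over all members, neighbours on a chromosome lay a median of 3.63 Mb apart, and 16 of 201 such distances (7.96%) were at most 100 kb. Chromosome 4 held 7 of these 16, and chromosome 15 held 3.

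Split peaks as a whole had more wild-type peaks around them than the median wild-type peak, though less clearly so at like width. Within 50 kb of its centre the median member had 5 other wild-type peaks (95% interval 5 to 6), and the median of all wild-type peaks was 3 (95% interval 3 to 4). The nearest other wild-type peak was 2098 bp away at the median (95% interval 1526 to 2664 bp), against 7741 bp for all. Loci with a shared part have a close neighbour by definition, with a median of 148 bp. Closed loci, for which nothing in the rule asks for a neighbour, had a median of 5220 bp (95% interval 3658 to 6664 bp). In the widest 1 of 5 width classes of equal size, wild-type peaks of 2406 bp and over, the nearest neighbour was a median of 4.30 kb from the 127 closed loci and 8.53 kb from peaks that were not split. In the class next to it, from 1876 to 2405 bp, the 13 closed loci and the peaks not split had nearly the same medians, 8.62 and 8.66 kb. In the 2 classes below these, from 1154 to 1443 bp and from 1444 to 1875 bp, the few closed loci (4 and 8) lay farther from a neighbour, at 16.05 and 13.8 kb, than peaks not split, at 6.72 and 6.98 kb. Among closed loci, a nearer neighbour was thus seen in the widest class only. That class reaches up to 20470 bp and its wider peaks were split more often, so widths within it are not closely matched. Median counts within 50 kb in the widest class were 5 for split peaks, 5 for closed loci and 4 for peaks not split. In the same order they were 4, 3 and 3 from 1876 to 2405 bp, and 5, 3 and 4 from 1444 to 1875 bp. From 1154 to 1443 bp they were 5, 4.5 and 4. The narrowest class had 2 split peaks, with a median of 6.5 against 3, and no closed locus.

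Split peaks were spread over 18 of the 20 chromosomes. By share, chromosome 4 came first, with 36 of its 3163 wild-type peaks, or 1.14% (95% interval 0.798 to 1.57%). On all other chromosomes together 0.530% were split (95% interval 0.457 to 0.613%). Next by share came chromosome 11 with 29 of 3040 (0.954%, 95% interval 0.640 to 1.37%) and chromosome 15 with 17 of 2094 (0.812%, 95% interval 0.474 to 1.30%). These 3 chromosomes carried 37.4% of the members and 22.0% of all wild-type peaks. The interval of chromosome 4 lay above that of the other chromosomes together, while those of chromosomes 4, 11 and 15 overlapped. By number alone, chromosomes 2 (20 members) and 5 (18) stood between chromosomes 11 and 15.

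At the low end, chromosomes 16 and X had no split peak. On chromosome 16 the count was 0 of 1071, which allows a share of up to 0.280% if up to 3 counts are allowed. The exact 95% interval reached 0.344%. On X the count was 0 of 658, which allows up to 0.456% in the same way, and the exact 95% interval reached 0.559%. Chromosome 3 had 3 of 1651 (0.182%, 95% interval 0.0375 to 0.530%). For comparison, the share over the whole list was 0.581%.

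Among peaks of like width, chromosome 4 still held more split peaks than the genome-wide rate gives. Applied to the 5 width classes of its own peaks, that rate gave 19.9 members for chromosome 4, and 36 were counted, 1.81 times as many (95% interval 1.27 to 2.51). Classes of 1 kb gave 1.76 times as many (95% interval 1.23 to 2.43). The genome-wide rate includes the peaks of chromosome 4 itself. Chromosome 4 was singled out as the highest by share, and the intervals make no allowance for that choice. Chromosome 11 had 1.50 times the width-based number (95% interval 1.005 to 2.15). With width classes of 1 kb it had 1.43 times, and the interval, from 0.958 to 2.05, includes 1. For chromosome 16 the width-based number was 5.60, against none counted, and the interval of the ratio reached 0.659. For X it was 3.66, against none, and the interval reached 1.009, which includes 1. Chromosome 3 had 0.340 times the width-based number (95% interval 0.0701 to 0.993), and with width classes of 1 kb the interval reached 1.06 and includes 1. For chromosome 1 it was 9.73, against 4 counted (ratio 0.411, 95% interval 0.112 to 1.05).

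Members on chromosome 4 were spread along it. In the 8 bins of 20 Mb the split share lay between 0 and 1.74%, with most members (12) in the bin from 120 to 140 Mb, which also held most peaks (861). In the only bin without a member, from 20 to 40 Mb, there were 99 wild-type peaks. No bin of the chromosome stood apart from the rest beyond its interval.

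Split peaks on chromosome 4 differed from those elsewhere beyond the intervals in knockout span and summed width, and not in the other measures that follow. The gap had a median of 218.5 bp (95% interval 74 to 326 bp), against 104 bp elsewhere (95% interval 80 to 134 bp). It lay at a median position of 0.386 (95% interval 0.320 to 0.450), against 0.281 elsewhere (95% interval 0.228 to 0.331). At least 50% of each part was inside the wild-type peak in 26 of 36 (72.2%, 95% interval 54.8 to 85.8%), against 92 of 183 (50.3%, 95% interval 42.8 to 57.7%). The knockout span was the narrower in 13 of 36 (36.1%, 95% interval 20.8 to 53.8%), compared with 23 of 183 elsewhere (12.6%, 95% interval 8.14 to 18.3%). At the median the span exceeded the wild-type peak by 132 bp (95% interval -40 to 313 bp). Elsewhere that median was 875 bp (95% interval 459 to 1220 bp). The summed width of the parts minus the wild-type width was -31 bp at the median (95% interval -273 to 254 bp). Elsewhere it was 646 bp (95% interval 348 to 998 bp). Covered shares were 90.9% (95% interval 84.7 to 94.7%) and 95.3% (95% interval 93.8 to 96.4%). Closed loci made up 77.8% (95% interval 60.9 to 89.9%) and 67.8% (95% interval 60.5 to 74.5%). The intervals of gap length, gap position, parts inside, covered share and closed share overlap. Those of the narrower span, the span difference and the summed width do not. Over the genome the span difference was 2216 bp at the median in loci with a shared part and 236 bp in closed loci. For the summed width these medians were 1991 and 96 bp. Chromosome 4 was not compared with the others within either kind of locus. On chromosome 4 the knockout list as a whole held fewer peaks (2258) than the wild-type list (3163). This was also so on chromosomes 6, 11, 12 and 17, though chromosome 4 had the lowest ratio. The part of that difference in the splits was not tested.

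The 17 split peaks on chromosome 15 had a median gap of 66 bp. Of these, 9 were closed and 8 shared a part with a neighbour. In all 17 the knockout span was wider than the wild-type peak. Over the genome this was so in 183 of 219 members (83.6%), and in all 67 loci with a shared part. Only 3 of its gaps lay at 0.4 to 0.5, and 6 at or under 0.1. On chromosome 12 all 9 members were closed and 4 of the gaps lay at 0.4 to 0.5. These counts are too small to rank the chromosomes by kind.

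Fusions, the opposite arrangement, were more frequent on most chromosomes. In the knockout list 806 peaks (1.92%, 95% interval 1.79 to 2.06%) met 2 or more wild-type peaks, so splits made up 21.4% of the 1025 splits and fusions (95% interval 18.9 to 24.0%). At the 67 loci with a shared part, that part is itself a fusion, so these loci enter both counts. The interval treats the counts as separate. With closed loci of exactly 2 parts alone, there were 152 splits and 708 fusions, and the share was 17.7% (95% interval 15.2 to 20.4%). The wild-type gap inside a fusing peak had a median of 172.5 bp (95% interval 154 to 196 bp), longer than the 110 bp of split peaks, with no overlap of the intervals. For the 30 fusions of 3 or more wild-type peaks the longest gap was taken, whereas each split had a single gap. In closed fusions of 2 peaks the median gap was 170 bp (95% interval 152 to 193 bp), against 115 bp in closed splits (95% interval 90 to 173 bp), and these intervals overlap. The gap lay at or under 0.1 of the width in 9.18% of fusions (95% interval 7.28 to 11.4%) and in 26.0% of splits. Among closed splits alone the edge share was 9.21% (14 of 152, 95% interval 5.13 to 14.97%), close to that of fusions, of which 91.4% were closed. The larger edge share of splits therefore lay in the loci with a shared part.

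The balance of splits and fusions changed from chromosome to chromosome, again with loci with a shared part entering both counts. On chromosome 4 there were 36 of each, a share of 50.0% (95% interval 37.98 to 62.02%). It was 37.5% on chromosome 12 (9 of 24, 95% interval 18.8 to 59.4%) and 37.2% on chromosome 11 (95% interval 26.5 to 48.9%). On chromosome 1 it was 6.25%, with 4 splits and 60 fusions (95% interval 1.73 to 15.2%), and on chromosome 16 there were 28 fusions and no split. The share was lower where the knockout list held more peaks relative to the wild type. Its correlation with the log2 ratio of knockout to wild-type peak number over the 20 chromosomes was -0.86 (Pearson r) or -0.81 (Spearman rho). With chromosomes 1 and 4 left out, r was -0.81. Both measures come from the same 2 peak lists, and chromosomes are not replicates, so the relation is a description of these libraries.

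**Figure D4:**
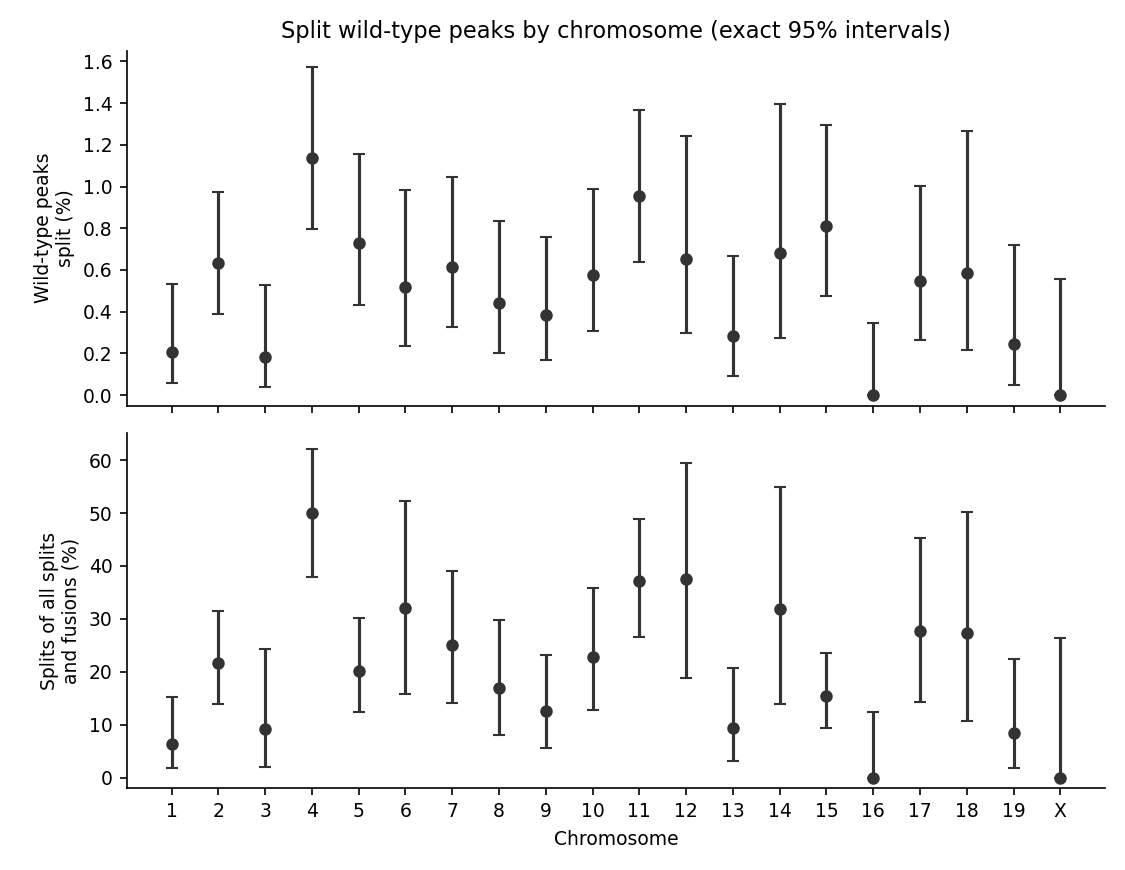
For each chromosome (horizontal axis), the percentage of wild-type peaks split in the knockout (upper panel) and splits as a percentage of splits and fusions together (lower panel); points are the measured shares and bars exact 95% intervals. Chromosome 4 is highest in both panels (1.14% and 50.0%), and chromosomes 16 and X are at 0.

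Seen from the gaps, a short break in the knockout was seldom closed in the wild type. Of 212 gaps of at most 50 bp between neighbouring knockout peaks, 61 lay inside a single wild-type peak, or 28.8% (95% interval 22.8 to 35.4%). The share was 17.2% for gaps of 51 to 100 bp, 11.1% for 101 to 200 bp, 5.92% for 201 to 500 bp and 1.34% for 501 to 1000 bp. In the reverse direction 159 of 208 wild-type gaps of at most 50 bp lay inside a single knockout peak, or 76.4% (95% interval 70.1 to 82.0%). For gaps of 501 to 1000 bp that share was 9.73%. At every length up to 3000 bp the interval for knockout gaps lay below that for wild-type gaps. The split peaks are therefore the small part of the knockout's short gaps that the wild type spanned: 213 of the 2985 gaps of at most 1000 bp (7.14%), while 2106 of them (70.6%) were not touched by any wild-type peak.

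**Figure D5:**
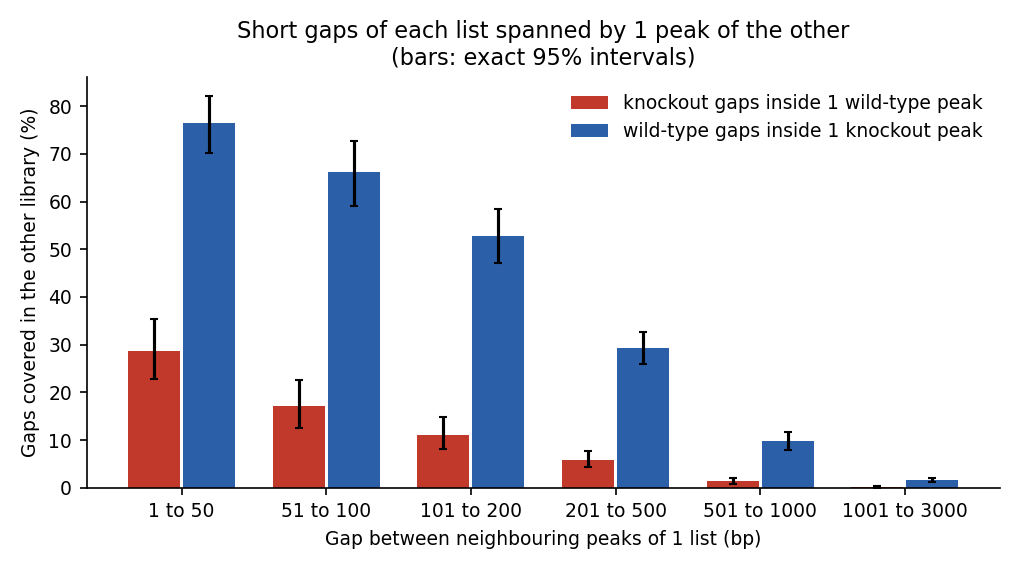
Percentage of gaps between neighbouring peaks of a list (vertical axis) that lie inside a single peak of the other list, by gap length in bp (horizontal axis); red, knockout gaps inside a wild-type peak, which are the split peaks; blue, wild-type gaps inside a knockout peak; bars, exact 95% intervals. Red falls from 28.8% to 0.140% and blue from 76.4% to 1.57%, with blue above red in all classes.

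Some members rest on very few bases. The member nearest the limit, at chromosome 5, 135749726 to 135751749, met its second knockout peak over 2 bp, and the next met theirs over 3, 4, 10 and 12 bp. Just outside the rule, wild-type peaks at chromosome 15, 6576418 to 6577331, and at chromosome 3, 32606009 to 32606938, abutted a second knockout peak without sharing a base with it. Of the members, 58 had a second overlap of at most 100 bp. Another 187 wild-type peaks with a single partner had a further knockout peak at most 100 bp away.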

How the data were processed

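Per the file headers, the authors deposited 1 Galaxy track of H2A.Z peaks per genotype, with 3 columns (chromosome, start, end) and no other value. The submitters' processing notes name mm9 as the build and list MACS 1.4.2, HOMER, Bowtie 0.12.8 and CASAVA 1.8.2; what each tool did, with which threshold and inputs, is not given in the sources used here. Libraries were read as single 50-base reads, per the labels' protocols. Starts were taken to count from 0 and are printed from 1. Peak calls depend on depth, which is unknown, so a short gap can turn on the threshold.

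Overlaps, gaps, positions and widths were computed with scipy 1.17.1, numpy 2.4.6 and pandas 2.3.3 under Python 3.11.15, with figures from matplotlib 3.10.9. The overlap code was tested on simulated lists. Shares carry exact Clopper-Pearson 95% intervals, medians exact order-statistic intervals, and ratios to a width-based number exact Poisson intervals; a count of 0 allows up to 3 counts. With 1 library per genotype no test was made. The loci to be named were fixed as the 10 widest members, those with the 5 longest and 5 shortest gaps, any with 3 or more parts, and the 3 chromosomes with the highest and the 3 with the lowest share. Members, rules and classes were chosen with earlier results of these data known; other loci were named after their values were seen. Sequences and genes were not used here, because the tables at hand are on GRCm38.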

Additional observations from a re-analysis of the deposited data

How the results depend on the processing

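Of 63 alternative values, 34 stayed inside the 95% interval of the value reported or, for the count of members, within 1.5 times, and 29 moved. An overlap of at least 100 bp gave a median width of 3538 bp, a gap position of 0.374 and a split share of splits and fusions of 17.97%. With at least 50% of the partner peak inside, 118 members were left, with 3837 bp, 0.415 and 15.01%. Joining knockout peaks within 200 bp, which removes short gaps by construction, left 76 members, with 3786 bp, a median gap of 331 bp, 0.372, 0.601% split on chromosome 4, 2.69 times the width-based number there, and 6.64% of splits and fusions. Joining within 500 bp left 23, with 4523 bp, a gap of 693 bp, 0.430, a smaller part of 1736 bp, 0.127% on chromosome 4 and 1.57%; the ratio on chromosome 4 was then 1.82 with an interval of 0.495 to 4.65, which includes 1. Closed loci alone gave 3562 bp, 0.372 and 17.7%. Trimming each peak by 100 bp on each side, which lengthens gaps by construction, gave 3456 bp, 331 bp, 0.382, a smaller part of 1272 bp and 17.1%. Unless stated, the cause was not tested. Autosomes alone, and leaving out chromosome 4 (added after seeing the data, 183 members), moved no value outside its interval. A stricter threshold was not run, since the lists hold no score. No paired analysis was possible because there is a single H2A.Z library on either side.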
